A study of Mus musculus with 7 samples.

Results

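Inflammasome genes were followed in the spleen of mice given lipopolysaccharide (LPS), a component of the outer membrane of Gram-negative bacteria. The 9 genes, chosen by symbol from the 17920 genes of the deposited expression table, were the sensors Nlrp3, Nlrc4, Aim2, Naip2 and Naip5, the adaptor Pycard, the caspases Casp1 and Casp4, and the pore former Gsdmd. All 7 libraries came from C57BL/6 mice of 8 weeks that had received 20 mg/kg LPS intraperitoneally, and they differed in genotype and in the time of collection. At 90 min there were 2 wild-type and 2 GdX-deficient libraries, and at 6 h there were 2 wild-type libraries and 1 GdX-deficient library. The series text counts 4 wild-type and 3 GdX-/- mice, which is the number of libraries of each genotype. The treatment protocol writes the mutant genotype as GdX-/Y, since the gene is X-linked. How the allele was made, and which bases it removes, is not given in the sources used here. No spleen without LPS was analysed here, so every value is a level after the injection.

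Inflammasomes are cytosolic complexes that form when a sensor protein meets a sign of infection or damage. The sensor recruits caspase-1, often through the adaptor ASC (the product of Pycard), and the active caspase cleaves the precursors of interleukin-1 beta and interleukin-18 and also gasdermin D, whose freed fragment perforates the plasma membrane and causes the lytic death called pyroptosis. In mice the product of Casp4, also called caspase-11, binds intracellular LPS directly and cleaves gasdermin D itself, and this non-canonical route is a known contributor to death from high doses of LPS. Macrophages, dendritic cells and neutrophils are the main carriers of this machinery in the spleen, and the genes measured here are the messages for it, not the assembled or cleaved proteins.

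The targeted gene was examined first as a check of the labels. Ubl4a, the gene that encodes GdX, ranged from 4.03 to 10.56 FPKM (fragments per kilobase of transcript, scaled to library size) in the GdX-deficient libraries and from 5.62 to 14.01 FPKM in wild type. Ubl4a therefore overlapped between the genotypes. Gm44504, whose RefSeq span shares bases with Ubl4a, ranged from 0.66 to 1.86 FPKM in the GdX-deficient libraries and from 14.52 to 51.10 FPKM in wild type, and the sum of both entries ranged from 5.04 to 11.22 FPKM against 21.02 to 62.98 FPKM. The sum separated the genotypes in the direction of the labels, although Ubl4a alone did not, and "GdX-deficient" below means the libraries so labelled. Read from the steps between low FPKM values, the depth was roughly 18500000 to 20300000 fragments per library. The haemoglobin genes took 7.7 to 30.9% of the summed FPKM, most in the libraries of 90 min. The crushed whole spleen was sequenced, and defining markers of B cells, T cells, neutrophils, macrophages and red cells were all detected. In such bulk tissue, fewer cells of a type and less RNA per cell cannot be told apart.

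All 9 genes were detected in every library and all passed the filter of a mean of at least 1 FPKM that 11378 genes passed. Their mean levels over the 7 libraries spanned a wide range. FPKM is a level per transcript length, so the genes were ranked on it, but the lengths used for it could not be settled. Casp4 was the most abundant with a mean of 80.85 FPKM, followed by Gsdmd with 55.44 FPKM, Casp1 with 27.05 FPKM and Aim2 with 20.04 FPKM. Pycard had a mean of 16.72 FPKM and Nlrp3 of 13.1 FPKM. Naip5 (4.72 FPKM), Naip2 (2.86 FPKM) and Nlrc4 (2.72 FPKM), which together form the flagellin and secretion-system sensors, were the least abundant. Gsdmd exceeded Casp1, Casp1 exceeded Aim2 and Nlrp3 exceeded Naip5 in all 7 libraries, Casp4 exceeded Gsdmd and Naip5 exceeded Naip2 in 6 of 7, and Aim2 exceeded Pycard in 5 of 7. The order of Nlrc4 and Naip2 was not fixed, with Naip2 higher in 3 of 7 libraries, and neither was that of Pycard and Nlrp3, with Pycard higher in 4 of 7. From the lowest to the highest library, Nlrc4 varied 6.78-fold, Nlrp3 6-fold and Naip2 4.24-fold, whereas Gsdmd varied 1.59-fold.

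**Figure D1:**
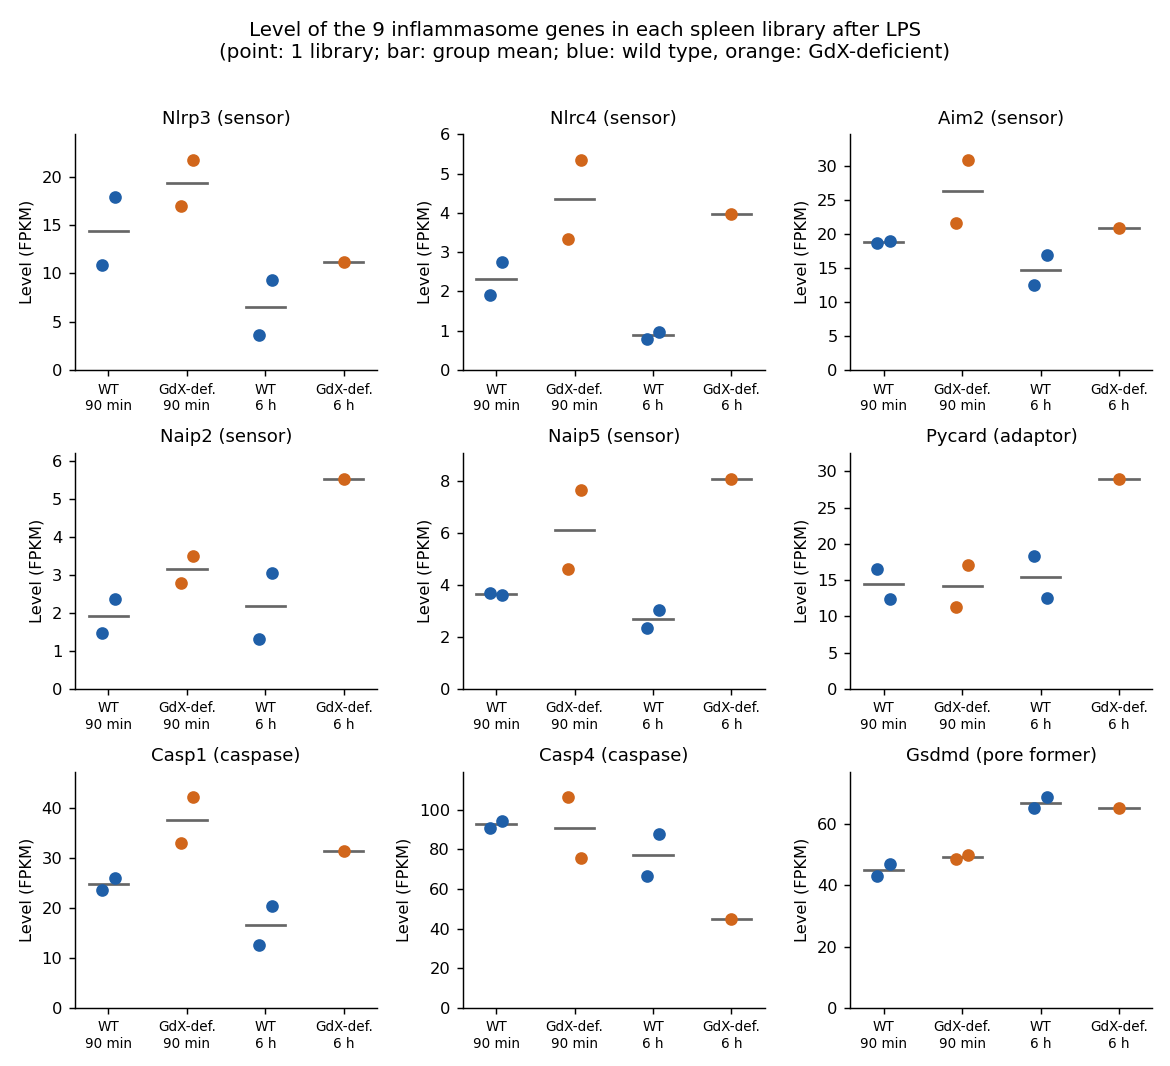
Level of each of the 9 genes in FPKM (vertical axes, each from 0) in the 4 groups; each point is 1 library and each bar the group mean, blue for wild type and orange for GdX-deficient. Wild-type replicate 1 at 6 h was the lowest library for 6 of the 9 genes, and Casp4 was lowest in the GdX-deficient library at 6 h.

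The start regions of the 3 sensors of lowest level and of Casp4 are shown because these genes carried the largest fitted genotype differences in either direction at 6 h on the deposited scale. After quantile normalization Casp1 (0.78) and Pycard (0.76) exceeded Naip2 (0.51) and Naip5 (0.73), and after correction for transcript length and GC content Casp1 exceeded all 3. RefSeq start regions on GRCm38.p6 were matched for 8 of the 9 genes (all but Gsdmd). Each line gives the 150 bases before 1 RefSeq start of the gene, 5' to 3' on the gene's own strand. For Naip5 and Nlrc4 that start lies inside the gene's span, whose upstream end is at 100250930 and 74459144. Capitals mark AGGAAGTG in either orientation in the first 3 lines (here as its reverse complement), the core bound by ETS factors such as PU.1, and in the Casp4 line an NF-kB type motif in either orientation, GGG and TTTCC with any 2 bases between. Naip2 lies at chr13:100202123-100202272 (minus strand), Naip5 at chr13:100247337-100247486 (minus strand), Nlrc4 at chr17:74459109-74459258 (minus strand) and Casp4 at chr9:5308699-5308848 (plus strand).
Naip2: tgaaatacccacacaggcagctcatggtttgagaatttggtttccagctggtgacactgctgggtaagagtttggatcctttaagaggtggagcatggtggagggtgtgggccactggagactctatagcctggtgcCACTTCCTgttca
Naip5: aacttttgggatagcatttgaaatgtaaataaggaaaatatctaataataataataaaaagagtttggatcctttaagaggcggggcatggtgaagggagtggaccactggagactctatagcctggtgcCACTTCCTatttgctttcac
Nlrc4: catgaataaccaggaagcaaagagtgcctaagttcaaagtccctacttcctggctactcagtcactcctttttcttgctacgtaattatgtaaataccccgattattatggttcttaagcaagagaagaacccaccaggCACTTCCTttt
Casp4: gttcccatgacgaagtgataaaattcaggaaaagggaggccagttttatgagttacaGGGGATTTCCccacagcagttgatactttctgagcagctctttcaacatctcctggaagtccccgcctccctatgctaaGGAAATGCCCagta
Naip2 and Naip5, neighbouring paralogs on chromosome 13, shared an identical run of 34 bases that ends in the motif. AGGAAGTG lay at bases -13 to -6 of Naip2, -20 to -13 of Naip5 and -11 to -4 of Nlrc4, counted back from the start used for each line. Over the 250 bases before a start, it was present in 5 of the 8 genes (also Aim2 and Pycard) and in 3.14% of the 32851 RefSeq windows. Here and below the first count is per gene and the percentage per window. A gene can have more than 1 window, so the counts and percentages are not like for like. The NF-kB type motif was present in Casp4 alone of the 8, at -93 to -84 and -14 to -5, and in 1.41% of windows. An interferon response element, GAAA and GAAA with any 2 bases between, was in none of the 8 and in 2.98% of windows, and TTCNNNGAA, the interferon-gamma activated site, was in none and in 7.02%. The motifs were chosen after the windows had been examined, both strands were searched, and a match is a run of letters and not a measured binding site.

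Nlrp3 (Entrez gene 216799, chr11:59541569-59566955 on GRCm38.p6), the sensor of membrane damage and ion loss whose transcription is primed by LPS, stood at 10.91 and 17.94 FPKM in wild type and at 16.99 and 21.78 FPKM in GdX-deficient spleen at 90 min. At 6 h it stood at 3.63 and 9.29 FPKM in wild type and at 11.14 FPKM in the GdX-deficient library. The genotypes overlapped at 90 min, and the single GdX-deficient library lay above both wild-type libraries at 6 h. The fitted genotype difference, GdX-deficient minus wild type on the log2(FPKM + 1) scale, was 0.43 (SE 0.41) at 90 min and 0.81 (SE 0.51) at 6 h, with adjusted p values of 0.692 and 0.313 (limma, Benjamini-Hochberg over all tested genes). The 2 wild-type replicates at 6 h differed more in Nlrp3 than in any other of the 5 sensors.

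Nlrc4 (Entrez gene 268973, chr17:74426255-74459144), the shared partner that the NAIP proteins recruit when they bind bacterial ligands, had the largest fitted genotype difference of the 9 at both times on the deposited scale. After quantile normalization Casp1 exceeded it (0.62 against 0.54 at 90 min, 0.78 against 0.76 at 6 h), as it did after correction for transcript length and GC content (0.78 against 0.54, then 1.30 against 1.28). Its levels were 1.90 and 2.74 FPKM in wild type and 3.33 and 5.36 FPKM in GdX-deficient spleen at 90 min. At 6 h they were 0.79 and 0.97 FPKM in wild type and 3.98 FPKM in the GdX-deficient library. All GdX-deficient libraries lay above all wild-type libraries, also when the times were put together. The difference was 0.67 (SE 0.30, limma adjusted p = 0.621) at 90 min and 1.41 (SE 0.36, limma adjusted p = 0.0582) at 6 h. Nlrc4 rested on few fragments, an estimated 76 to 469 per library.

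Naip2 and Naip5 encode the receptors for the rod protein of bacterial secretion systems and for flagellin. Naip2 (Entrez gene 17948, chr13:100144063-100202122) stood at 1.47 and 2.36 FPKM in wild type and 2.79 and 3.51 FPKM in GdX-deficient spleen at 90 min, and at 1.31 and 3.05 FPKM against 5.55 FPKM at 6 h. Naip5 (Entrez gene 17951, chr13:100211735-100250930) stood at 3.69 and 3.62 FPKM in wild type and 4.61 and 7.63 FPKM in GdX-deficient spleen at 90 min, and at 2.35 and 3.02 FPKM against 8.09 FPKM at 6 h. In both genes every GdX-deficient library exceeded the wild-type libraries of its time, and for Naip5 those of either time. The differences were 0.52 (SE 0.34) for Naip2 and 0.58 (SE 0.31) for Naip5 at 90 min, and 1.10 (SE 0.41) and 1.31 (SE 0.38) at 6 h, with limma adjusted p values of 0.634 and 0.621, then 0.126 and 0.0769. The Naip genes are close copies of each other, and how fragments shared between them were assigned is not given in the sources used here, so the split between Naip2 and Naip5 is uncertain.

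Aim2 (Entrez gene 383619, chr1:173349547-173466040), the sensor of cytosolic double-stranded DNA, stood at 18.66 and 18.94 FPKM in wild type and at 21.60 and 30.89 FPKM in GdX-deficient spleen at 90 min. At 6 h it stood at 12.52 and 16.80 FPKM against 20.89 FPKM. All GdX-deficient libraries lay above all wild-type libraries, and the mutant pair at 90 min differed from each other by more than either pair of wild-type libraries. The difference was 0.44 (SE 0.29, limma adjusted p = 0.637) at 90 min and 0.50 (SE 0.36, limma adjusted p = 0.376) at 6 h, between 1 and 2 standard errors at each time and not past the test.

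Pycard (Entrez gene 66824, chr7:127991373-127993867), which links sensors to caspase-1, did not separate the genotypes at 90 min. It stood at 16.58 and 12.34 FPKM in wild type and at 11.27 and 17.02 FPKM in GdX-deficient spleen at 90 min. At 6 h it stood at 18.35 and 12.48 FPKM in wild type and at 29.00 FPKM in the GdX-deficient library, the highest of the 7. The difference was -0.04 (SE 0.32, limma adjusted p = 0.964) at 90 min and 0.89 (SE 0.40, limma adjusted p = 0.176) at 6 h.

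Casp1 (Entrez gene 12362, chr9:5298517-5307281), the effector caspase of the canonical inflammasomes, was higher in the GdX-deficient libraries at each time. It stood at 23.62 and 25.95 FPKM in wild type and at 33.01 and 42.13 FPKM in GdX-deficient spleen at 90 min, and at 12.66 and 20.46 FPKM against 31.49 FPKM at 6 h. Every GdX-deficient library lay above every wild-type library, whichever the time. The difference was 0.57 (SE 0.30, limma adjusted p = 0.621) at 90 min and 0.92 (SE 0.37, limma adjusted p = 0.140) at 6 h.

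Casp4 (Entrez gene 12363, chr9:5308849-5336791), whose span begins just beyond that of Casp1, was the gene whose genotype difference at 6 h lay lowest among the 9. It stood at 90.68 and 94.47 FPKM in wild type and at 106.17 and 75.44 FPKM in GdX-deficient spleen at 90 min, where the mutant pair enclosed the wild-type pair. At 6 h it stood at 66.37 and 87.88 FPKM in wild type and at 44.94 FPKM in the GdX-deficient library, the lowest of the 7. The difference was -0.05 (SE 0.27, limma adjusted p = 0.954) at 90 min and -0.75 (SE 0.33, limma adjusted p = 0.174) at 6 h.

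Gsdmd (Entrez gene 69146, chr15:75862144-75867408), the substrate through which both caspases open the membrane, was the steadiest of the 9. It stood at 43.20 and 46.85 FPKM in wild type and at 48.55 and 50.07 FPKM in GdX-deficient spleen at 90 min, and at 65.33 and 68.72 FPKM against 65.37 FPKM at 6 h. The 6 h libraries were all above the 90 min libraries in both genotypes. The genotype difference was 0.13 (SE 0.23, limma adjusted p = 0.839) at 90 min and -0.04 (SE 0.29, limma adjusted p = 0.946) at 6 h.

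**Figure D2:**
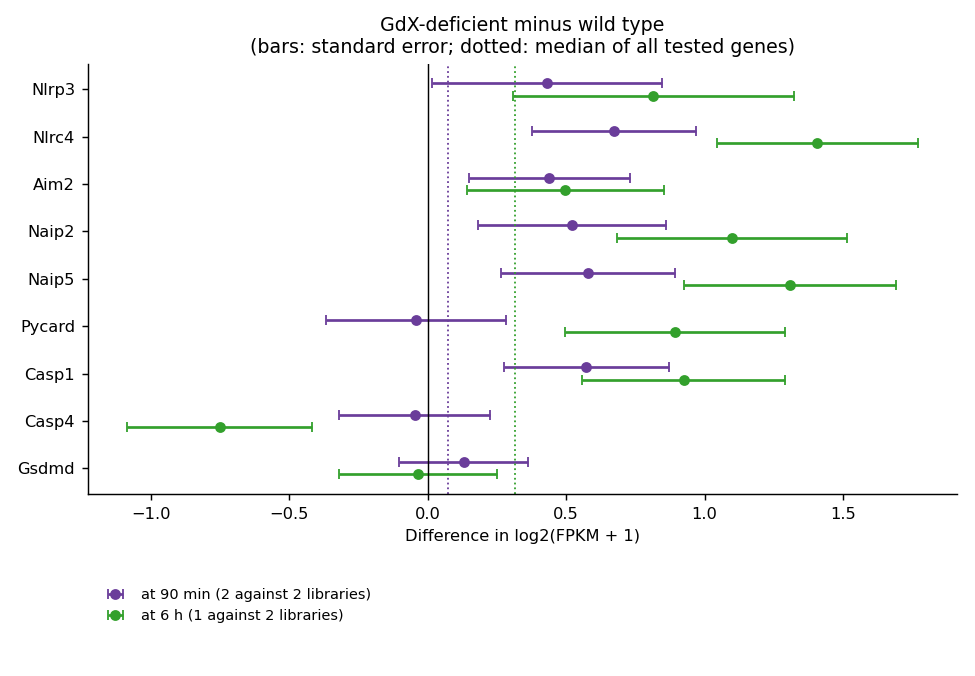
Genotype difference of each gene, GdX-deficient minus wild type, on the log2(FPKM + 1) scale, at 90 min (purple, 2 against 2 libraries) and at 6 h (green, 1 against 2 libraries); bars are standard errors and dotted lines the medians of all tested genes, 0.07 and 0.32. Nlrc4 and Naip5 lie farthest right at 6 h, at 1.41 and 1.31, and Casp4 farthest left, at -0.75.

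Of the 9 genes, none passed an adjusted p of 0.05 for genotype at 90 min (limma), where 0.0176% of the tested genes did (2 of 11378). At an unadjusted p under 0.05 there was 1, Nlrc4, against 7.58% of tested genes. At 6 h none passed either, against 3.96% of tested genes (450), and 5 had an unadjusted p under 0.05, namely Nlrc4, Naip5, Naip2, Casp1 and Casp4, against 28.4% of tested genes. With both times in 1 model and time as a covariate, none passed, against 0.0439% of tested genes (5). There, 4 had an unadjusted p under 0.05 (Nlrc4, Naip5, Casp1 and Naip2), against 27% of tested genes, and the differences of these 4 were 0.97 (SE 0.26), 0.87 (SE 0.26), 0.71 (SE 0.24) and 0.75 (SE 0.28), with limma adjusted p values of 0.104, 0.109, 0.116 and 0.129. Every 6 h value and every value of this joint fit that uses the single GdX-deficient library at 6 h assumes that it varies like the groups of 2. The tests measure only the spread between these few libraries.

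Some calls turned on 1 library. Without wild-type replicate 2 at 6 h, which leaves 1 library against 1 and takes the spread wholly from the 90 min groups, 5 of the 9 genes passed at 6 h, with limma adjusted p values of 0.0253 for Nlrp3, 0.0177 for Nlrc4, 0.0142 for Naip2, 0.0244 for Naip5 and 0.0232 for Casp1. In that fit 3035 of the 11378 tested genes passed, against 450 with all libraries. Without wild-type replicate 1 at 6 h, again 1 library against 1, none passed, and the differences were 0.24 for Nlrp3, 0.69 for Naip2, 0.60 for Casp1, 1.34 for Nlrc4 and 1.18 for Naip5. The wild-type replicate that stays in the first case is the lowest library for 6 of the 9 genes. Without GdX-deficient replicate 2 at 90 min, Nlrc4 alone passed at 6 h, with a limma adjusted p of 0.0494, among 640 tested genes. Without GdX-deficient replicate 1 at 90 min, Nlrc4 and Naip5 passed in the model with time as a covariate, with limma adjusted p values of 0.0227 and 0.0259, in a fit that called 1674 tested genes, against 5 with all libraries. Nlrc4 also passed at 6 h, with a difference of 1.28 and a limma adjusted p of 0.0400, when each library was corrected for transcript length and GC content, a fit that called 1013 tested genes.

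Leaving out each library in turn moved the genotype differences at 90 min over wide ranges. They ran from 0.0960 to 0.77 for Nlrp3, 0.39 to 0.95 for Nlrc4, 0.19 to 0.69 for Aim2, 0.30 to 0.74 for Naip2, 0.27 to 0.89 for Naip5 and 0.40 to 0.74 for Casp1. The lowest values came without GdX-deficient replicate 2, except those of Nlrp3 and Naip2, which came without wild-type replicate 1. For Gsdmd the difference at 90 min ran from 0.0722 to 0.19, and it was 0.34 after rescaling without haemoglobin genes. At 6 h the ranges were 0.24 to 1.39 for Nlrp3, 0.30 to 0.70 for Aim2, 0.69 to 1.504 for Naip2 and 0.60 to 1.25 for Casp1, against 1.34 to 1.48 for Nlrc4 and 1.18 to 1.44 for Naip5.

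At 90 min both GdX-deficient libraries lay above both wild-type libraries for 6 of the 9 genes (Aim2, Casp1, Gsdmd, Naip2, Naip5 and Nlrc4), as they did for 24.1% of tested genes. They lay below both for none of the 9, against 23.4% of tested genes. At 6 h the single GdX-deficient library lay above both wild-type libraries for 7 of the 9 (those but Casp4 and Gsdmd), against 54.9% of tested genes, and below both for 1, Casp4, against 25.3%. The 5 genes that were higher without overlap at both times were Aim2, Casp1, Naip2, Naip5 and Nlrc4, where the background was 19% of tested genes. Of these, Aim2, Casp1, Naip5 and Nlrc4 were also higher with the times put together. The share of tested genes that were so was not computed. None of the 9 was lower without overlap at both times, where the background was 13%. The median genotype difference of the 9 genes was 0.44 at 90 min, against 0.07 over all tested genes, and 0.89 at 6 h, against 0.32. At 6 h most genes of the table were thus on the higher side in the single GdX-deficient library, and of the 9 genes 7 lay above that median at either time.

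The zero of these differences depends on the scaling. Quantile normalization moved the median of all tested genes to 0.01 at 90 min and -0.02 at 6 h, and rescaling each library without its haemoglobin genes moved it to 0.27 and 0.59. The medians of the 9 genes were then 0.40 and 0.51 after quantile normalization and 0.65 and 1.18 without haemoglobin genes, so 7 or 8 of the 9 lay above the median of all genes under each of these scalings. The genotype differences of Nlrp3, Nlrc4, Aim2, Naip2, Naip5 and Casp1 were positive under every scaling tried at both times, but at 6 h quantile normalization took Nlrp3 from 0.81 to 0.35, Aim2 from 0.50 to 0.28, Nlrc4 from 1.41 to 0.76, Naip5 from 1.31 to 0.73 and Naip2 from 1.10 to 0.51. Those of Casp4 at 90 min and of Gsdmd at 6 h became positive under both, and that of Pycard at 90 min became positive without haemoglobin genes. Casp4 at 6 h was negative throughout, at -0.67 after quantile normalization and -0.48 without haemoglobin genes.

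Transcript length also moved with the libraries. For the 2980 tested genes with transcripts of 4000 nt and over, each gene's deviation from its own mean over the libraries was taken. The median deviation was -0.48 in wild-type replicate 1 at 6 h. In GdX-deficient spleen it was 0.29 in replicate 2 at 90 min and 0.39 in the 6 h library. For the 1943 genes under 1500 nt the median deviation was 0.32, -0.15 and 0.00 in the same libraries. Naip5 (5204 nt), Naip2 (4823 nt), Nlrc4 (4729 nt) and Nlrp3 (4021 nt) belong to the long class, while Casp1 (1497 nt) and Casp4 (1435 nt) belong to the short class. A length was matched for only 1 of 7 listed transcripts of Naip5, 1 of 5 of Nlrc4, 1 of 3 of Nlrp3 and 1 of 4 of Casp4. Nlrp3 and Casp1 lie close to the limits of their classes. After correction of each library for length and GC content, the genotype differences at 90 min were 0.54 for Nlrc4, 0.43 for Naip5, 0.39 for Naip2, 0.30 for Nlrp3 and 0.78 for Casp1. At 6 h they were 1.28, 1.14, 0.95, 0.65 and 1.30 for the same genes. The long sensors were thus somewhat lower and Casp1 higher than before the correction, and Casp4 went from -0.75 to -0.35 at 6 h.

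**Figure D3:**
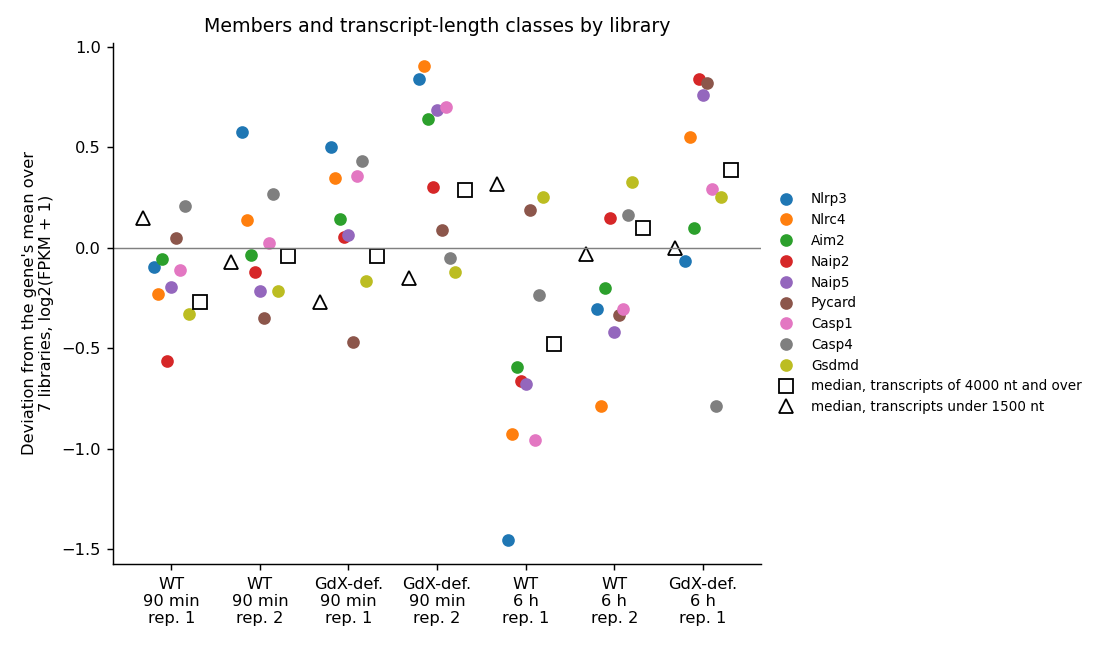
Deviation of each of the 9 genes (coloured points) from its own mean over the 7 libraries on the log2(FPKM + 1) scale, by library, with the median deviation of transcripts of 4000 nt and over (open squares) and under 1500 nt (open triangles). The open squares reach their lowest value, -0.48, in wild-type replicate 1 at 6 h, where 6 of the 9 genes are at their lowest, and their highest, 0.39, in the GdX-deficient library at 6 h.

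Casp1 and Casp4, neighbours whose matched transcripts were of like length, stood in ratios that did not overlap between the genotypes. The ratio of Casp4 to Casp1 was 3.84 and 3.64 in wild type at 90 min and 5.24 and 4.30 in wild type at 6 h. It was 3.22 and 1.79 in GdX-deficient spleen at 90 min and 1.43 in the GdX-deficient library at 6 h. All 3 GdX-deficient libraries lay below all 4 wild-type libraries, and a ratio within a library does not depend on a factor that scales the whole library. With both times pooled, the mean log2 ratio was 1.01 ± 0.60 (SD, n = 3) in GdX-deficient and 2.07 ± 0.23 (SD, n = 4) in wild type, a difference of -1.06. The times are mixed in unequal parts in the 2 genotypes, so the SDs and the difference include any change with time. Leaving out each library in turn gave differences from -1.40 to -0.81. This ratio was chosen after the values had been seen, so it is given as a description, with no test. Of the 36 pairs among the 9 genes, 8 had a ratio that did not overlap between the genotypes. The share over pairs of all tested genes was not computed, so neither this count nor the Casp4 to Casp1 separation can be called unusual.

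**Figure D4:**
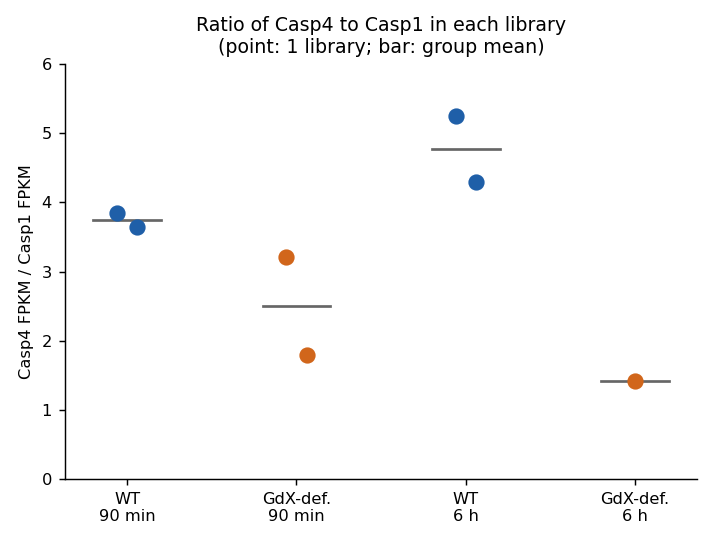
Ratio of Casp4 FPKM to Casp1 FPKM (vertical axis from 0) in each library, by group; each point is 1 library and each bar the group mean. The GdX-deficient libraries range from 1.43 to 3.22 and the wild-type libraries from 3.64 to 5.24.

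Time after LPS was then compared within each genotype. In wild type none of the 9 genes passed an adjusted p of 0.05 (limma) between 90 min and 6 h, against 10.7% of tested genes (1218), and 3 had an unadjusted p under 0.05 (Nlrp3, Nlrc4 and Gsdmd) against 28.7% of tested genes. The difference, 6 h minus 90 min on the log2(FPKM + 1) scale, was -1.12 (SE 0.41, limma adjusted p = 0.113) for Nlrp3, -0.81 (SE 0.30, limma adjusted p = 0.110) for Nlrc4 and 0.56 (SE 0.23, limma adjusted p = 0.150) for Gsdmd. The wild-type libraries of 6 h lay below those of 90 min for 6 of the 9 genes (Aim2, Casp1, Casp4, Naip5, Nlrc4 and Nlrp3), against 27.6% of tested genes, and above them for Gsdmd alone, against 30.3%. The median difference of the 9 was -0.34, against 0.05 over all tested genes. Nlrp3 passed when wild-type replicate 2 at 6 h was left out, with -1.70 and a limma adjusted p of 0.00367. That fit sets 1 wild-type library at 6 h, assumed to vary like the other groups, against 2 at 90 min, and without wild-type replicate 1 at 6 h its difference was -0.55.

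In GdX-deficient spleen the comparison set 1 library at 6 h, again assumed to vary like the groups of 2, against 2 at 90 min. None of the 9 genes passed, as did 0% of tested genes (limma), and 2 had an unadjusted p under 0.05 (Pycard and Casp4), against 8% of tested genes. The difference was 1.01 (SE 0.40, limma adjusted p = 0.532) for Pycard and -0.98 (SE 0.33, limma adjusted p = 0.419) for Casp4. The 6 h library lay above both 90 min libraries for Gsdmd, Naip2, Naip5 and Pycard, 4 of the 9, against 56.8% of tested genes, and below both for 4 (Aim2, Casp1, Casp4 and Nlrp3), against 15.8%. On the log2(FPKM + 1) scale, the genotype difference at 6 h minus that at 90 min was largest for Pycard, at 0.94 (SE 0.51, limma adjusted p = 0.617). Nlrc4 stood at 0.73 on that scale, but at 1.20 with a pseudocount of 0.1, where it exceeded Pycard. The value was lowest for Casp4, at -0.70 (SE 0.43, limma adjusted p = 0.674), and without GdX-deficient replicate 1 at 90 min that of Casp4 was -0.46. None of the 9 passed this interaction test, against 0.0703% of tested genes (8), and none had an unadjusted p under 0.05, against 9.98%, so no gene of the set was shown to respond to genotype differently at the 2 times.

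**Figure D5:**
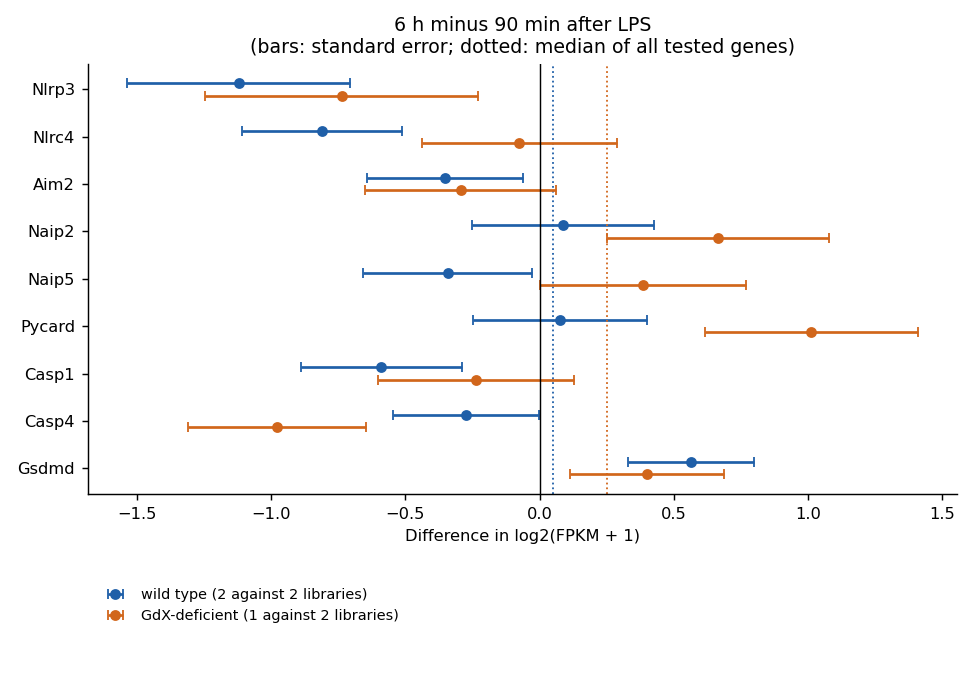
Difference between 6 h and 90 min after LPS for each gene, on the log2(FPKM + 1) scale, in wild type (blue, 2 against 2 libraries) and GdX-deficient spleen (orange, 1 against 2 libraries); bars are standard errors and dotted lines the medians of all tested genes, 0.05 and 0.25. Nlrp3 lies farthest left in wild type, at -1.12, and Pycard farthest right in GdX-deficient spleen, at 1.01.

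The cytokine precursors cleaved by caspase-1 had lower values in both GdX-deficient than in both wild-type libraries at 90 min, as 23.4% of tested genes did, and neither passed the genotype test. Il1b, which encodes the interleukin-1 beta precursor, stood at 377.31 and 315.38 FPKM in wild type and at 264.90 and 120.29 FPKM in GdX-deficient spleen at 90 min. At 6 h it stood at 79.61 and 114.81 FPKM against 141.30 FPKM. Both GdX-deficient libraries were thus below wild type at 90 min and the single one was above it at 6 h, and Il1b fell by 1.84 between 90 min and 6 h in wild type (SE 0.37, limma adjusted p = 0.0175). The genotype difference of Il1b was -0.95 (SE 0.37, limma adjusted p = 0.621) at 90 min and 0.56 (SE 0.46, limma adjusted p = 0.434) at 6 h, and the interaction did not pass either (limma adjusted p = 0.422). Il18, which encodes the interleukin-18 precursor, stood at 51.00 and 52.23 FPKM in wild type and 43.64 and 45.85 FPKM in GdX-deficient spleen at 90 min, and at 68.67 and 68.84 FPKM against 80.93 FPKM at 6 h. The genotype difference of Il18 was -0.20 (SE 0.23, limma adjusted p = 0.735) at 90 min and 0.23 (SE 0.28, limma adjusted p = 0.604) at 6 h.

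Other genes of the pathway were taken from 4 lists. Of the other sensors and relatives, 13 of the 19 listed were tested, and 1 was higher and 1 lower with genotype at 6 h, where 3.96% of all tested genes passed in either direction. Nlrc3, a regulatory member of the NLR family, was higher in the GdX-deficient library by 1.75 (SE 0.37, limma adjusted p = 0.0389), with 4.01 FPKM against 0.49 FPKM in both wild-type libraries. Ifi205, an interferon-inducible relative of Aim2, was lower by 1.58 (log2 difference -1.58, SE 0.30, limma adjusted p = 0.0299), with 61.23 FPKM against 190.11 and 181.23 FPKM. In wild type, where 10.7% of all tested genes passed with time, 1 of these 13 rose from 90 min to 6 h, Zbp1, a sensor of Z-form nucleic acid, by 1.22 (SE 0.29, limma adjusted p = 0.0314). In the same comparison 2 fell, Mb21d1, which encodes the DNA sensor cGAS, by 1.51 (SE 0.31, limma adjusted p = 0.0173) and Ifi203 by 1.17 (SE 0.24, limma adjusted p = 0.0182). None of the 13 passed in the other comparisons, and their median genotype difference was 0.33 at 90 min and 0.36 at 6 h, against 0.07 and 0.32 over all tested genes.

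Of the other caspases, gasdermins, substrates and lytic effectors, 17 of 21 were tested, and none passed for genotype at either time. In wild type, 1 rose with time and 1 fell, against the same 10.7%. Mlkl, the executioner of necroptosis, rose by 1.53 (SE 0.32, limma adjusted p = 0.0183), and Il1b was the one that fell. Of the regulators of inflammasome assembly, 17 of 19 were tested and none passed for genotype. In wild type Gbp2, a guanylate-binding protein that coats Gram-negative bacteria, rose by 1.69 with time (SE 0.31, limma adjusted p = 0.0122). Serpinb1a, an inhibitor of neutrophil proteases, fell by 1.26 (SE 0.27, limma adjusted p = 0.0213), and Tmem173, which encodes the adaptor STING, fell by 1.20 (SE 0.28, limma adjusted p = 0.0283).

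All 13 transcription factors known to bind these genes were tested, none passed for genotype, and 1, Nfkbiz, fell with time in wild type by 1.98 (SE 0.55, limma adjusted p = 0.0499), where 10.7% of all tested genes passed. Nfkbiz encodes an LPS-induced nuclear cofactor of NF-kB. Spi1, which encodes PU.1, ranged from 70.40 to 160.43 FPKM and was highest in the GdX-deficient library at 6 h. Irf2, a known activator of Gsdmd transcription, stood at 25.83 and 45.77 FPKM in wild type and 51.50 and 67.82 FPKM in GdX-deficient spleen at 90 min. At 6 h Irf2 stood at 21.76 and 38.83 FPKM against 58.18 FPKM, so each GdX-deficient library was above the wild-type libraries of its time, without passing the test. Irf8, a known activator of the Naip genes and Nlrc4, ranged from 168.39 to 437.85 FPKM, overlapped between the genotypes at 90 min and was lowest in the GdX-deficient library of 6 h. Spi1, Irf2 and Irf8 were singled out after their values had been seen.

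These calls among pathway genes were close to the threshold. With no filter on low values all of them except Ifi203 missed it. Both genotype calls were lost under 1 other scaling each, Ifi205 when the haemoglobin genes were left out (-1.31, limma adjusted p = 0.0599) and Nlrc3 after quantile normalization (1.09, limma adjusted p = 0.0799). Zbp1, Mlkl, Tmem173 and Nfkbiz also missed it without haemoglobin genes, with limma adjusted p values from 0.0578 to 0.0640, and Nfkbiz under a pseudocount of 0.1, a filter at a mean of 5 FPKM and quantile normalization. Without wild-type replicate 1 at 90 min, Mb21d1, Ifi203, Zbp1, Mlkl, Serpinb1a and Tmem173 missed it, with limma adjusted p values from 0.0556 to 0.137. Without wild-type replicate 2 at 90 min, Mb21d1, Ifi203, Zbp1, Serpinb1a and Tmem173 missed it, with 0.0648 to 0.158. Tmem173 also missed it, at 0.0514 to 0.0716, without either GdX-deficient library of 90 min or without wild-type replicate 1 of 6 h, and it missed it narrowly in the fit of only the 4 libraries compared, so that 7 of 15 alternatives kept the call. Nfkbiz also missed it without the GdX-deficient library of 6 h.

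The markers of the cells that carry inflammasomes also moved with the libraries. The 11 neutrophil markers summed to 1288.1 and 824.0 FPKM in wild type and 1131.5 and 4937.2 FPKM in GdX-deficient spleen at 90 min, and to 1175.4 and 818.4 FPKM against 2690.3 FPKM at 6 h. Of these, 10 of 11 had a positive genotype difference at 90 min and 9 of 11 at 6 h, with medians of 1.27 and 1.58, against 56.5% and 66.2% positive and medians of 0.07 and 0.32 over all tested genes, and none passed the test at either time. GdX-deficient replicate 2 at 90 min, the library with the highest sum, was also the highest library for Nlrp3, Nlrc4, Aim2 and Casp1. The 10 monocyte and macrophage markers summed to 1362.7 and 1536.7 FPKM in wild type and 1304.4 and 1268.4 FPKM in GdX-deficient spleen at 90 min, and to 596.9 and 779.7 FPKM against 1417.3 FPKM at 6 h, where 3 of 10 passed as higher, against 3.96% of tested genes in either direction. The 7 dendritic cell markers summed to 38.8 to 49.8 FPKM at 90 min, and at 6 h to 18.9 and 21.7 FPKM in wild type against 41.6 FPKM in the GdX-deficient library.

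Sums of B cell, T cell and erythroid markers were also higher in the GdX-deficient library of 6 h than in both wild-type libraries, whereas that of NK cell markers lay between them. The 6 B cell markers summed to 499.5 and 557.3 FPKM in wild type at 6 h against 1814.1 FPKM in the GdX-deficient library, with 1193.1 to 2103.5 FPKM at 90 min. The 6 T cell markers summed to 153.7 and 130.6 FPKM against 276.7 FPKM at 6 h. At 6 h 1 gene passed as higher in each of the lists of B cells, T cells, NK cells, dendritic cells and red pulp macrophages. Of the 8 erythroid markers 6 passed, against 3.96% of all tested genes in either direction, with sums of 198.7 and 273.9 FPKM in wild type and 617.7 FPKM, and their sums at 90 min were 557.4 and 632.3 FPKM in wild type against 1259.3 and 1071.5 FPKM. The 5 NK cell markers summed to 209.2 and 152.7 FPKM in wild type at 6 h and 198.3 FPKM in the GdX-deficient library. The 7 red pulp macrophage markers summed to 548.7 and 444.9 FPKM in wild type at 6 h and 669.2 FPKM in the GdX-deficient library, where 6 of 7 had a positive difference with a median of 0.94, and to 596.1 to 739.0 FPKM at 90 min. The 5 pancreatic markers, from the neighbouring organ, summed to 2.6 to 8.4 FPKM. No marker of any list was at 0 in every library. The part of these markers in the differences of the 9 genes was not tested.

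Across the 7 libraries the 9 genes fell into loose patterns, given here as Pearson correlations of log2(FPKM + 1) without a test, since the points share depth and composition. Aim2 and Casp1 had r = 0.968, Nlrc4 and Casp1 0.945, and Nlrc4 correlated at 0.914 with Aim2 and with Naip5. Casp4 had r = 0.035 with Casp1, its neighbour, and -0.953 with Pycard. Among 7833 other genes with a mean of at least 5 FPKM, the 3 most like Nlrp3 were Arid5b (0.992), Prkcq (0.992) and Wdr37 (0.989). Those most like Aim2 were Fpr1 (0.991), Hdc (0.987) and Snx2 (0.981), of which Fpr1 encodes a formyl peptide receptor of neutrophils and Hdc the enzyme that makes histamine. Those most like Casp4 were D16Ertd472e (0.962), Dusp16 (0.959) and Pdcd1 (0.958), and those most like Gsdmd were Dbnl (0.990), Fbxw17 (0.989) and Sac3d1 (0.987). Such likeness was common for some genes, with 321 candidates at r of at least 0.9 for Aim2, 311 for Gsdmd and 273 for Nlrp3, and rarer for Casp4, with 33.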

How the data were processed

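The authors deposited FPKM values per the file headers, rounded to 2 decimals, in 1 column for each library. Per the submitters' processing notes, HISAT, HISAT2 2.0.4, Bowtie2 and RSEM were used with GRCm38.p5; their roles are not stated there. The protocol in the labels names oligo-dT selection or rRNA depletion without saying which was used. Sequencing was on a BGISEQ-500. Columns were matched to samples by title, and no column lacked a sample.

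Genes with a mean of at least 1 FPKM over the 7 libraries were tested on log2(FPKM + 1), a scale that understates the change of low genes, with limma 3.58.1 in R 4.3.3 (empirical Bayes with a trend on mean level, 2-sided, Benjamini-Hochberg over 11378 genes, threshold 0.05). A model of the 4 groups gave genotype at each time, time in each genotype and their interaction. A second model had genotype and time as terms. The script was tested on simulated data. Alternatives were a pseudocount of 0.1, no filter, a filter at a mean of 5 FPKM, quantile normalization, rescaling without haemoglobin genes, a replicate block, each library left out, a fit of the libraries compared, and a correction of each library for transcript length and GC content (chosen after seeing the data; lengths from GENCODE M21 for 97.1% of tested genes, not Pycard). Since the table holds no counts, no count model was run.

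The 9 genes, the pathway and marker lists were chosen with earlier results of these data known. The rule for naming took the 9 genes, Il1b and Il18, up to 5 genes per pathway list past the threshold with the smallest p, and the 3 genes most correlated with Nlrp3, Aim2, Casp4 and Gsdmd. Fragments per gene were estimated from depths read from the steps of low FPKM values, and cover counting error only.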

Additional observations from a re-analysis of the deposited data

How the results depend on the processing

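Of 723 values of the 9 genes under the alternatives, 680 kept their direction and their side of the threshold, 17 came to pass it and 26 changed sign, all of them in genes that did not pass before, and the cause was not tested. Changes of sign other than by leaving out a library were, for genotype at 90 min, Casp4 at 0.0885 (quantile), 0.16 (without haemoglobin genes) and 0.19 (corrected for length and GC) and Pycard at 0.16 (without haemoglobin genes). For genotype at 6 h, Gsdmd gave 0.10, 0.24 and 0.0826 under the same 3 settings. With time in wild type, Pycard gave -0.0083 (quantile) and -0.0339 (without haemoglobin genes), and the interaction under quantile normalization gave -0.0239 for Nlrp3 and -0.16 for Aim2. Leaving out each library gave genotype ranges at 90 min of -0.32 to 0.23 for Pycard and -0.29 to 0.20 for Casp4, at 6 h of -0.0710 to 0.0009 for Gsdmd, and with time as covariate of -0.0425 to 0.56 for Pycard. Over time it gave -0.32 to 0.49 for Naip2 and -0.18 to 0.34 for Pycard in wild type and -0.35 to 0.20 for Nlrc4 in GdX-deficient spleen, and for the interaction -0.19 to 0.96 for Nlrp3 and -0.19 to 0.31 for Aim2. Without a change of sign, leaving out a library also moved time in wild type to -0.55 to -0.15 for Aim2, -0.92 to -0.26 for Casp1 and -0.47 to -0.0740 for Casp4, time in GdX-deficient spleen to 0.0749 to 0.70 for Naip5, -0.54 to -0.0461 for Aim2 and -0.41 to -0.0660 for Casp1, and the interaction to 0.17 to 0.98 for Naip2, 0.42 to 1.04 for Naip5, 0.46 to 1.01 for Nlrc4 and 0.0261 to 0.68 for Casp1. Genes called over the table, in the order genotype at 90 min, at 6 h, with time as covariate, time in wild type, time in GdX-deficient and interaction, were 2, 450, 5, 1218, 0 and 8. Without a filter they were 90 for genotype at 6 h, 635 and 22 for time in wild type and in GdX-deficient, and 3 for the interaction. A mean of at least 5 FPKM, which leaves out Nlrc4, Naip2 and Naip5, gave 233 for genotype at 6 h and 0 for the interaction. Quantile normalization gave 270 and 4 for these, rescaling without haemoglobin genes 241 and 0 (and 717 for time in wild type), and a pseudocount of 0.1 gave 0 for the interaction. Correction for length and GC gave 0, 1013, 2, 1980 and, for the interaction, 45, with 1 of the 9 genes called at 6 h. A fit of only the 4 libraries compared gave 181 for genotype at 90 min. Leaving out each library gave 2 to 183, 627 to 3035, 2 to 1674, 450 to 1774, 0 to 236 and 0 to 238, with 0 to 5 of the 9 genes called for genotype at 6 h, 0 to 2 with time as covariate and 0 to 1 for time in wild type. The highest counts came without wild-type replicate 2 at 6 h, except 1674, without GdX-deficient replicate 1 at 90 min. Same-numbered replicates of wild type and GdX-deficient spleen at 90 min had deviations correlated at -0.12, of the wild-type groups at 0.77, and of the remaining pair at 0.08, so the numbers share a pattern in wild type and not across genotypes, and no label says that they mark a shared animal or day. With the replicate number as a block, 3383 genes were called for genotype at 6 h (5 of the 9), 12 with time as covariate, 2345 for time in wild type (2 of the 9, Nlrp3 with an adjusted p of 0.0226 and Nlrc4 with 0.0383), 37 for time in GdX-deficient and 80 for the interaction, Gsdmd for genotype at 6 h came to 0.0032 and Nlrc4 over time in GdX-deficient to 0.10. A block of crossed numbers for genotype at 90 min gave 2 genes. Leaving out the GdX-deficient 6 h library gave no value for genotype at 6 h, time in GdX-deficient or the interaction.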

Other observations

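The 5 relatives of the sensors that lay below the filter of 1 FPKM were not tested and are given as values. Nlrp12, an NLR protein of myeloid cells, was listed at 0.06 and 0.09 FPKM in wild type and 0.10 and 0.91 FPKM in GdX-deficient spleen at 90 min, and at 0.16 and 0.19 FPKM against 2.70 FPKM at 6 h. Naip6, a further flagellin receptor and a close copy of Naip5, was listed at 0.34 and 0.61 FPKM against 0.98 and 1.58 FPKM at 90 min, and at 0.23 and 0.64 FPKM against 1.81 FPKM at 6 h. In both genes every GdX-deficient library exceeded the wild-type libraries of its time. Nlrp6 went the other way, at 0.26 and 0.27 FPKM in wild type against 0.21 and 0.12 FPKM at 90 min, and at 0.18 and 0.20 FPKM against 0.15 FPKM at 6 h. Nlrp10 (0.24 and 0.26 against 0.13 and 0.43 FPKM) and Naip1 (0.36 and 0.24 against 0.20 and 0.42 FPKM) overlapped at 90 min, and at 6 h they stood at 0.11 and 0.24 against 0.80 FPKM and at 0.17 and 0.31 against 0.73 FPKM. Mefv, which encodes the inflammasome sensor pyrin and was tested without passing, stood at 8.74 and 11.71 FPKM in wild type and 12.09 and 20.68 FPKM in GdX-deficient spleen at 90 min, and at 5.94 and 11.93 FPKM against 18.60 FPKM at 6 h. Mefv was chosen after its values had been seen.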
